A study of Homo sapiens with 48 samples.

Results

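The genes described are 9 that carry or transmit the driver signal of uveal melanoma, the melanoma of the eye. They are the Gq-class G protein alpha subunits GNAQ and GNA11, the receptor CYSLTR2, the effector phospholipase PLCB4, the exchange factor TRIO, the small GTPase ARF6, and the 3 other recurrently mutated genes BAP1, SF3B1 and EIF1AX. They were chosen by name, as known drivers and pathway genes of this cancer, from 58870 genes counted in every library. Of the 9, 8 had enough reads to be tested in every comparison, and CYSLTR2 did not.

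GNAQ and GNA11 encode the alpha subunits that relay signals from receptors such as CYSLTR2 to phospholipase C beta, of which PLCB4 is one form. Active alpha subunits also engage TRIO, which switches on small GTPases such as RAC, and ARF6, which directs membrane traffic of the signalling complex, while the phospholipase branch makes diacylglycerol and activates protein kinase C. Activating mutation of one of these upstream genes is an early event in most uveal melanomas, and loss of BAP1 or mutation of SF3B1 or EIF1AX typically follows.

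RNA was sequenced from 3 human uveal melanoma cell lines, 92-1, MEL202 and MP41, after 4 h or 24 h with DMSO, the solvent and negative control, or with FHT-1015, an inhibitor of SMARCA4 and SMARCA2, the ATPases of the BAF chromatin remodelling complex. In a separate set, 92-1 was given IDE196, a protein kinase C inhibitor, or its own DMSO. Each of the 16 groups held 3 biological replicates by the labels, 48 libraries in all, in 4 sets of 12 (92-1, MEL202 and MP41 with FHT-1015, and 92-1 with IDE196). The labels gave the genotype of every group as WT and no dose. As background, 92-1 and MEL202 are known to carry an activating GNAQ mutation and MP41 one in GNA11, and mutations of EIF1AX in 92-1 and of SF3B1 in MEL202 have been described. Gene counts do not separate alleles, so all values below are the sum of normal and mutant transcripts.

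Libraries held 11394088 to 32317711 reads assigned to genes. All 7 melanocyte lineage markers examined reached at least 1 CPM (read counts scaled to library size) in DMSO in each set and summed to between 7913 and 22187 CPM, whereas fibroblast markers summed to at most 43.2 CPM, epithelial markers to at most 17.3 CPM and leukocyte markers to at most 3.78 CPM. In 4 libraries GC-rich genes stood high against GC-poor genes by over 0.5 (log2, against the median of their set). These were MEL202 DMSO 4 h replicate 1 at 1.13, MEL202 FHT-1015 4 h replicate 2 at 0.88, MP41 DMSO 24 h replicate 1 at 0.83 and MP41 DMSO 24 h replicate 2 at 1.86, while the other 44 lay between -0.30 and 0.17. For MP41 at 24 h and for MEL202, a value without those libraries is given below wherever leaving them out changed the call of a named gene. MP41 DMSO 24 h is then 1 library, so every p without them for that group takes the spread from the other groups and assumes that the lone library varies like them. In bulk RNA, fewer cells expressing a gene and less RNA per cell cannot be told apart.

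Promoter sequence is shown for the 3 members that fell under both inhibitors in 92-1 at 24 h, since their fall in transcript is the result that recurs most below. RefSeq promoter entries (GRCh38.p14) were matched for 6 of the 9 genes, in 7 entries. Each sequence below is the 250 bases before the annotated start, written 5′ to 3′ on the strand of the gene, with capitals marking matches on either strand to the GC box GGGCGG or the cyclic AMP response core TGACG. The ARF6 stretch is chr14:49892832-49893081 (plus strand), that of EIF1AX is chrX:20141839-20142088 (minus strand), and that of GNA11 is chr19:3094112-3094361 (plus strand).
ARF6: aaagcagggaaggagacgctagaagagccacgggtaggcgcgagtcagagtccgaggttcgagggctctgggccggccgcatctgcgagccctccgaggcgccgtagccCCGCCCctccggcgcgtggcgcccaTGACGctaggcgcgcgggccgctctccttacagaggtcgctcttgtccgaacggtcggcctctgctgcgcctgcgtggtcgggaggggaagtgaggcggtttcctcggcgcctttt
EIF1AX: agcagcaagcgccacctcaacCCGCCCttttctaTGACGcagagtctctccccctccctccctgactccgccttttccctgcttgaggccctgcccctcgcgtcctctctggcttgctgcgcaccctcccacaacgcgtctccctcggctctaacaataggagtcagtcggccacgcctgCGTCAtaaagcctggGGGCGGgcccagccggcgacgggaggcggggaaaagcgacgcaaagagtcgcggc
GNA11: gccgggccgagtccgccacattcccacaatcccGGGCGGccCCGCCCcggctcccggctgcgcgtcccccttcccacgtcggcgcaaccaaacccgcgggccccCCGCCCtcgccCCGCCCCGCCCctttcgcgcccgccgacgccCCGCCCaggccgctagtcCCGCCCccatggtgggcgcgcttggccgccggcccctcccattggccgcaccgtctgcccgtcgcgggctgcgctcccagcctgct
ARF6 held 1 GC box and 1 TGACG, EIF1AX 2 of each, and GNA11 7 GC boxes and no TGACG. Among 35116 promoters of the same length, 42.6% held a GC box and 21.2% held TGACG. The motifs CCGGAAG (ETS factors, in 8.52% of promoters), CACGTG (E-box, 6.34%), TGANTCA (AP-1, 6.57%) and the NRF1 motif (1.03%) had no match in these 3 stretches. GC content was 69.6% for ARF6, 66.0% for EIF1AX and 80.4% for GNA11. A match is a string of letters and was not tested as a binding site.

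Levels of the 9 genes in DMSO were compared per gene length in the 6 DMSO libraries of each set. The measure was TPM, counts divided by the merged length of all annotated exons and scaled to 1 fixed total per library. The merged exons of GNA11 span 6242 bases and its longest transcript 4147, against 6629 and 6539 for GNAQ. Levels by transcript length were not computed. In the FHT-1015 set of 92-1, ARF6 was highest at 191 ± 11.6 TPM (SD, n = 6), and its range overlapped that of EIF1AX, the translation start factor, at 167 ± 13.3 TPM. Below them, without overlap between neighbours, came the splicing factor SF3B1 (119 TPM), the deubiquitinase BAP1 (66.3 TPM), GNAQ (44.5 TPM), GNA11 (35.4 TPM), TRIO (18.2 TPM) and PLCB4 (8.17 TPM). In MEL202 the 4 highest genes, SF3B1 at 189 ± 40.7 TPM, EIF1AX, BAP1 and ARF6, overlapped from one to the next, as did GNAQ with GNA11 and TRIO with PLCB4. In MP41 the same 4 genes were highest and overlapped from one to the next, and GNA11 (63.7 TPM) stood above GNAQ (29.7 TPM) without overlap. The IDE196 set of 92-1 had the same order as the other set of that line.

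**Figure D1:**
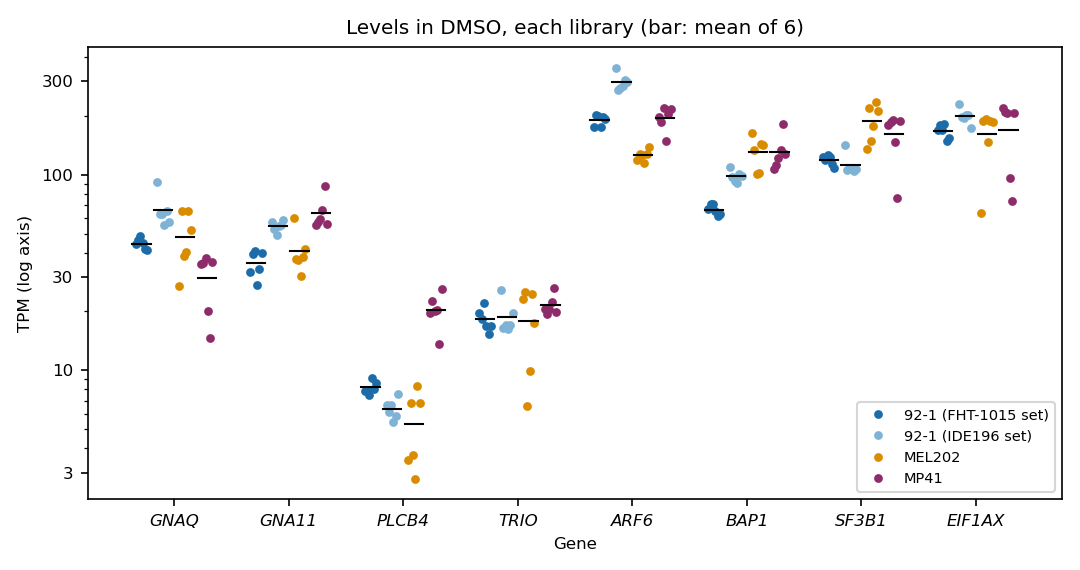
Levels of 8 genes in DMSO, in TPM on a log axis, with 1 point per library and a bar at the mean of 6 libraries for each set. ARF6 is lowest in MEL202, PLCB4 is highest in MP41, and the 2 lowest MP41 points of GNAQ, SF3B1 and EIF1AX are the 24 h libraries whose GC balance stood apart.

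The levels of these genes in DMSO differed between the FHT-1015 sets of the 3 lines. Each line was its own set, so line and preparation cannot be told apart. The 2 DMSO sets of 92-1 themselves differed for 7 of 8 members, against 60.4% of all genes. Among these were ARF6 (FHT-1015 set minus IDE196 set -0.53), GNA11 (-0.52), BAP1 (-0.45) and PLCB4 (0.47). Between lines, 52.9% of all tested genes differed for 92-1 against MEL202, 65% for 92-1 against MP41 and 56% for MEL202 against MP41 (edgeR's quasi-likelihood test, Benjamini-Hochberg adjusted p under 0.05, the rule for every call below), and 4, 6 and 5 of the 8 members did. PLCB4 was higher in MP41 than in 92-1 (log2 difference 92-1 minus MP41 -0.92, SE 0.18, adjusted p = 3.19e-05) and than in MEL202 (MEL202 minus MP41 -1.82, SE 0.18, adjusted p = 3.07e-10). ARF6 was higher in 92-1 than in MEL202 by 0.84 (SE 0.09, adjusted p = 6.62e-09) and than in MP41 by 0.36 (SE 0.09, adjusted p = 0.00140). BAP1 was lower in 92-1 than in MEL202 (-0.74, SE 0.11, adjusted p = 1.57e-06) and MP41 (-0.57, SE 0.11, adjusted p = 4.47e-05). SF3B1 was higher in MEL202 than in either other line, with 92-1 minus MEL202 at -0.41 (adjusted p = 0.0203) and MEL202 minus MP41 at 0.38 (adjusted p = 0.0265). The first of these SF3B1 calls was lost without MEL202 DMSO 4 h replicate 2 (highest adjusted p = 0.0694) and the second without any 1 of that library, MEL202 DMSO 24 h replicate 2, MP41 DMSO 4 h replicate 1 and MP41 DMSO 24 h replicate 2 (highest adjusted p = 0.0902). EIF1AX in 92-1 against MP41 passed narrowly at 0.44 (adjusted p = 0.0493), a call lost when any 1 of 10 of the 12 libraries was left out and without the libraries that stood apart (0.10, adjusted p = 0.339). TRIO passed in none of the 3 comparisons of lines. Without the libraries that stood apart, SF3B1 was also called for 92-1 minus MP41 (-0.23, adjusted p = 0.0323) and BAP1 for MEL202 minus MP41 (0.22, adjusted p = 0.0323), and the other calls of PLCB4, ARF6, BAP1, SF3B1, GNAQ and GNA11 between lines kept their side of the threshold. With an offset for GC content GNA11 was also called for 92-1 minus MEL202, where the difference went from 0.04 (adjusted p = 0.820) to 0.34 (adjusted p = 2.25e-04).

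The balance of the 2 alpha subunits differed between the sets of the lines, where line and preparation cannot be told apart. The ratio of GNAQ to GNA11 in TPM was 1.28 ± 0.209 (SD, n = 6) in 92-1, 1.21 ± 0.223 in the second DMSO set of that line, 1.26 ± 0.486 in MEL202 (1.42 without DMSO 4 h replicate 1) and 0.498 ± 0.208 in MP41. In MP41 at 4 h, where no library stood apart, it was 0.629 ± 0.00910 (SD, n = 3). GNAQ was lower in MP41 than in 92-1 by a log2 difference of 1.01 (SE 0.17, adjusted p = 4.77e-06), and GNA11 was higher (92-1 minus MP41 -0.46, SE 0.13, adjusted p = 0.00317). GNA11 overlaps 2 antisense genes, and the sum of its 2 strand-specific counts was 1.53 times the unstranded count used here, against 1 for the other members. With that sum the 4 ratios in the order given were 0.833, 0.793, 0.817 and 0.316, so the ratio in MP41 remained lowest but GNAQ no longer exceeded GNA11 in 92-1 or MEL202.

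CYSLTR2, the leukotriene receptor that is itself mutated in some uveal melanomas, was close to the limit of detection. It had 90 reads over the 48 libraries, of which 69 were in the 12 MP41 libraries, and 26 libraries had none. Only 11 libraries held more than 3 reads, 9 of them MP41, and the highest held 12 reads, with 0.503 CPM the highest level in any library. Its level in MP41 DMSO was 0.243 ± 0.0923 TPM (SD, n = 6). No fold change is given, since most groups lay at or under 3 reads.

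In 92-1, 3 of 8 members passed under FHT-1015 at 4 h, all lower, where 29.5% of all tested genes passed (16.7% lower), and 3 of 8 at 24 h, all lower, where 60.6% passed (29.2% higher, 31.4% lower). With an offset for GC content 6 of 8 passed at 24 h, the added BAP1, SF3B1 and TRIO being higher. In MP41, 4 of 8 passed at 24 h, 2 higher and 2 lower, against 36.1% of all genes (17.4% higher, 18.7% lower), and 0 of 8 at 4 h, against 0.225%. At 24 h in MP41 2 of 8 passed with an offset for GC content and 1 of 8 with only the 6 libraries compared. The calls of GNAQ and PLCB4, the 2 higher ones, were lost in both. In MEL202, 0 of 8 passed at 4 h, against 0.679%, and 0 of 8 at 24 h, against 18.8% (8.69% higher, 10.1% lower). At an unadjusted p under 0.05 the members numbered 0 at 4 h in MEL202 and in MP41, and 1 (ARF6) at 24 h in MEL202. DESeq2 also called 0 members in these 3 comparisons, and limma-voom called 0, 0 and 4 members in them. Under IDE196 in 92-1, 1 of 8 passed at 4 h, against 16.2%, and 7 of 8 at 24 h, 6 lower and 1 higher, against 58.1% (28.7% higher, 29.4% lower). The median log2 difference of the 8 members was -0.59 under IDE196 at 24 h, beside 0.03 over all tested genes, and -0.18 under FHT-1015 in 92-1 at 24 h, beside -0.0008 over all. In DMSO alone, 24 h against 4 h, 0 of 8 members passed in each set by edgeR, where the shares of all genes that passed were 0.344% (92-1 with FHT-1015), 0% (MEL202), 2.59% (MP41) and 0.266% (92-1 with IDE196). At an unadjusted p under 0.05 they numbered 1, 0, 3 and 1 in that order, and limma-voom called 6 in MP41 and 0 elsewhere.

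**Figure D2:**
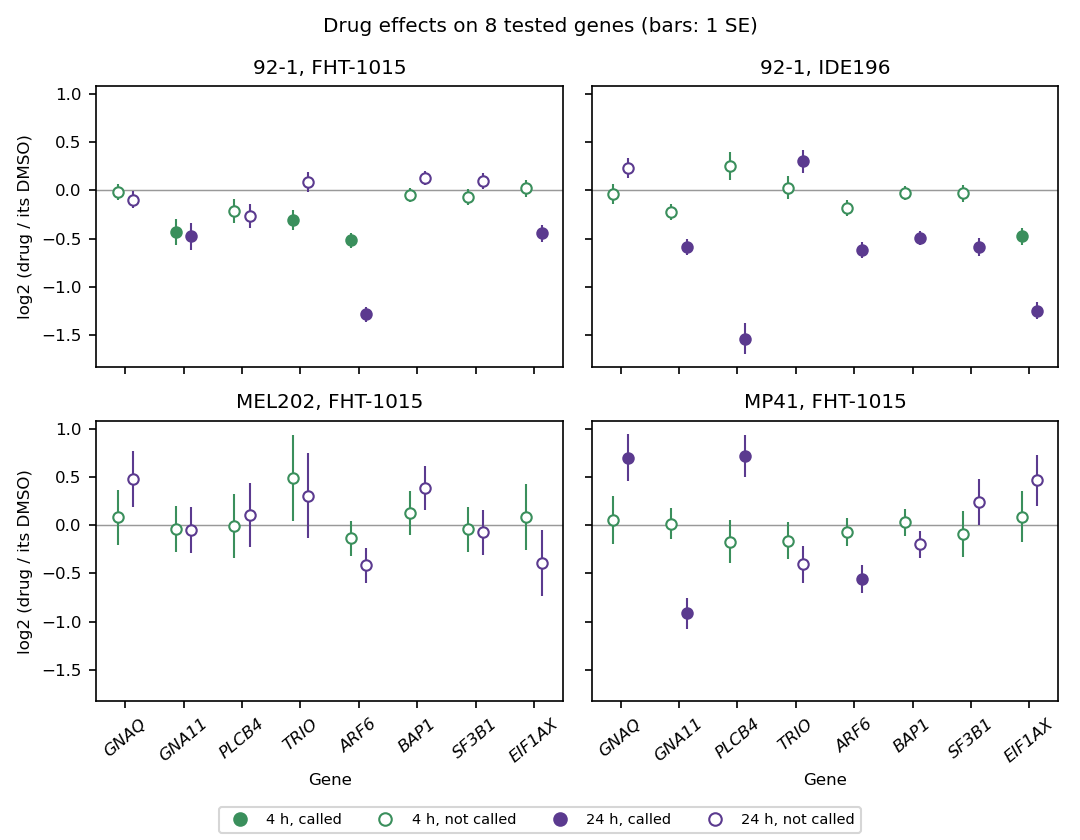
Log2 difference between drug and its DMSO for 8 genes in each set, at 4 h (green) and 24 h (purple), with bars of 1 SE and filled points where the adjusted p was under 0.05. ARF6 at 24 h is -1.29 in 92-1 under FHT-1015, and PLCB4 and EIF1AX at 24 h are -1.54 and -1.25 under IDE196.

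GNA11, one of the 2 interchangeable alpha subunits, fell at 24 h in 92-1 under both drugs and in MP41 under FHT-1015. In MP41 at 24 h, GNA11 (chr19:3094410-3124004) had 112, 142 and 90.0 CPM in the DMSO replicates and 62.2, 59.6 and 60.8 CPM with FHT-1015. All treated libraries were below all DMSO libraries, and the 2 highest DMSO values came from the libraries whose GC balance stood apart. The log2 difference was -0.91 (SE 0.16, 1.88-fold lower, adjusted p = 6.92e-04), and it was -0.58 (adjusted p = 0.00458) against the 1 DMSO library left without those and -0.55 (adjusted p = 1.59e-04) with an offset for GC content. The GNA11 effect at 24 h was below that at 4 h (24 h minus 4 h effect -0.93, SE 0.23, adjusted p = 0.0122), the 1 member of 8 called by edgeR in that test of MP41, which 18.6% of all genes passed. DESeq2 called 2 members and limma-voom 5 there. The PLCB4 difference had the other sign and was not called by edgeR (0.89, adjusted p = 0.0653), but it was by DESeq2 (adjusted p = 0.0449), by limma-voom (adjusted p = 0.00196) and with no filter on low counts (adjusted p = 0.0283). Against that 1 DMSO library the values were -0.59 for GNA11 (adjusted p = 0.0223) and -0.66 for ARF6 (adjusted p = 0.0200), with the spread taken from the other groups. In MEL202 0 of 8 passed the same test by edgeR, against 6.89%, with 0 at an unadjusted p under 0.05 and 0 by DESeq2 and limma-voom.

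In 92-1, GNA11 had 65.3, 79.4 and 79.7 CPM in DMSO at 4 h and 49.6, 55.5 and 61.5 CPM with FHT-1015, with no overlap. At 24 h it had 56.3, 65.9 and 82.1 CPM in DMSO and 56.8, 45.3 and 44.4 CPM with FHT-1015, where the highest treated library reached the lowest DMSO library. The log2 difference was -0.43 (SE 0.14, adjusted p = 0.0277) at 4 h and -0.48 (SE 0.14, adjusted p = 0.00790) at 24 h. The 4 h call was lost without any 1 of DMSO replicates 2 and 3 and FHT-1015 replicates 1 and 2 (highest adjusted p = 0.0968) and in one fit of all 48 libraries (adjusted p = 0.115), and the 24 h call without DMSO 24 h replicate 3 (adjusted p = 0.0511). Under IDE196 at 24 h, GNA11 went from 96.9, 97.3 and 99.5 CPM to 71.0, 61.3 and 63.1 CPM, a log2 difference of -0.59 (SE 0.08, adjusted p = 6.47e-06) with groups well apart. At 4 h IDE196 gave 81.1, 75.4 and 78.9 CPM against 89.7, 94.4 and 91.3 CPM, also without overlap, and the difference of -0.23 did not pass by edgeR (adjusted p = 0.0630), whereas DESeq2 (adjusted p = 0.0278) and limma-voom (adjusted p = 0.0345) called it. In MEL202 at 24 h the DMSO and FHT-1015 ranges of GNA11, 54.1 to 67.5 and 54.6 to 62.0 CPM, overlapped.

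GNAQ (chr9:77716087-78031458), the other alpha subunit, was not called lower in any of the 8 comparisons of drug with DMSO. In 92-1 at 24 h it had 97.6, 88.3 and 89.7 CPM in DMSO and 83.8, 85.0 and 89.0 CPM with FHT-1015, which overlapped. With IDE196 at 24 h it had 133, 120.3 and 132 CPM against 104, 122 and 103 CPM, and the difference of 0.23 did not pass (adjusted p = 0.0659), but it was called with an offset for GC content (0.33, adjusted p = 0.00509) with only the 6 libraries compared (adjusted p = 0.0373) and without DMSO 4 h replicate 4 or DMSO 24 h replicate 5 (lowest adjusted p = 0.0351). In MEL202 at 24 h GNAQ had 76.9, 111 and 89.0 CPM in DMSO and 134, 126 and 127 CPM with FHT-1015. The treated libraries were all higher, by 0.48 (SE 0.29, adjusted p = 0.283). This passed when only the 6 libraries compared were fitted (adjusted p = 0.0269), with an offset for GC content (adjusted p = 0.0315) and with limma-voom (adjusted p = 0.00175), and did not without the libraries that stood apart (adjusted p = 0.0642).

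In MP41 at 24 h, GNAQ was called higher with FHT-1015 by 0.70 (SE 0.25, 1.63-fold, adjusted p = 0.0407), but that value rested on the DMSO libraries that stood apart. The DMSO replicates had 36.2, 25.1 and 60.6 CPM and the treated ones 77.6, 56.2 and 65.0 CPM. The 2 low values were those of DMSO replicates 1 and 2, and the other DMSO library lay within the treated range. Without these libraries the difference was 0.11 (adjusted p = 0.684), with an offset for GC content 0.20 (adjusted p = 0.159), and in the 6 libraries compared alone 0.65 (adjusted p = 0.151). Leaving out any 1 of 10 of the 12 MP41 libraries ended the call (0.45 to 1.04 over all 12 omissions), the exceptions being DMSO 24 h replicate 3 and FHT-1015 24 h replicate 2. The GNAQ transcript examined has 38.6% GC and that of GNA11 62.8%, and at 24 h the ratio of GNAQ to GNA11 in TPM was 0.368 ± 0.240 (SD, n = 3) in DMSO and 1.02 ± 0.144 with FHT-1015. In the DMSO library that did not stand apart it was 0.634.

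**Figure D3:**
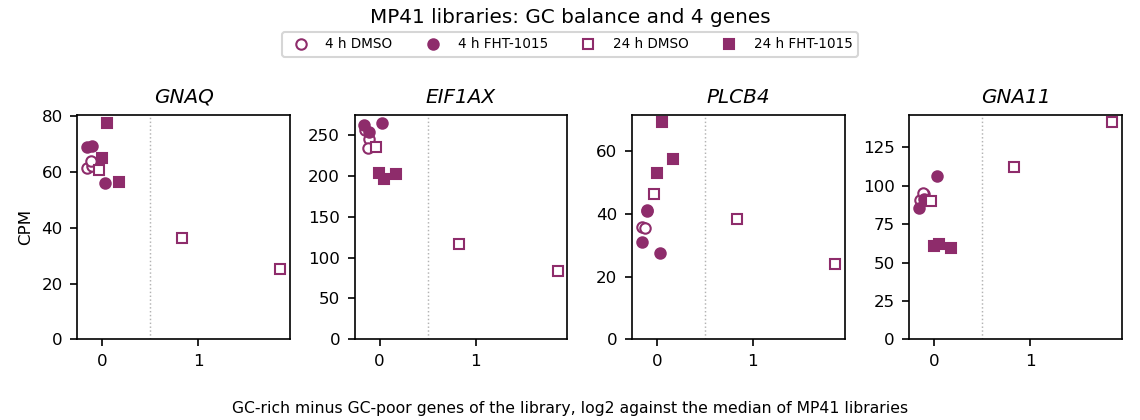
CPM of 4 genes in the 12 MP41 libraries against the GC balance of each library. The balance is the median log2 deviation from the set median in GC-rich genes, minus that in GC-poor genes. The 2 DMSO libraries at 24 h to the right of the dotted line at 0.5 hold the lowest GNAQ and EIF1AX values and the highest GNA11 values of the set.

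PLCB4 (chr20:9068763-9481242), the phospholipase that cleaves membrane phosphoinositides when bound by an active alpha subunit, fell most of the members under IDE196. At 24 h it had 10.6, 11.4 and 14.1 CPM in DMSO and 3.94, 3.73 and 4.81 CPM with IDE196. Every treated library was below every DMSO library by more than the spread of either group. The log2 difference was -1.54 (SE 0.16, 2.91-fold lower, adjusted p = 2.51e-07). At 4 h the values ran from 11.4 to 13.6 CPM in DMSO and were 13.3, 13.9 and 17.0 CPM with IDE196, which overlapped, and the change between times was called (24 h minus 4 h effect -1.79, SE 0.21, adjusted p = 7.92e-06). Across genes, 30.7% passed that test of the 2 times.

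With FHT-1015 in 92-1 at 24 h, PLCB4 had 20.7, 17.7 and 19.5 CPM in DMSO and 15.0, 15.5 and 17.7 CPM with the drug. All treated libraries were lower, the highest by little (17.69 against 17.70 CPM in the lowest DMSO library). The difference of -0.26 did not pass by edgeR (adjusted p = 0.0772) but did by limma-voom (adjusted p = 0.0440) and without FHT-1015 4 h replicate 1 or 3 (lowest adjusted p = 0.0397). In MEL202 its level was low and scattered, at 5.54, 14.7 and 12.2 CPM in DMSO and 8.83, 12.4 and 13.6 CPM with the drug at 24 h. In MP41 at 24 h PLCB4 had 38.4, 24.1 and 46.3 CPM in DMSO and 69.0, 57.3 and 52.9 CPM with FHT-1015. All treated libraries were higher, and the lowest DMSO value came from the library with the strongest GC imbalance. The log2 difference of 0.72 (SE 0.22, 1.65-fold higher, adjusted p = 0.0224) was 0.35 (adjusted p = 0.225) without the libraries that stood apart and 0.22 (adjusted p = 0.247) with an offset for GC content. The call was also lost without FHT-1015 24 h replicate 1 (adjusted p = 0.0844) and with only the 6 libraries compared (adjusted p = 0.0896).

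TRIO (chr5:14143702-14532128), the exchange factor that acts on RAC, was called in 2 of the 8 comparisons of drug with DMSO, and neither call held in every setting. In 92-1 at 4 h it had 113, 103 and 122 CPM in DMSO and 106, 85.4 and 81.5 CPM with FHT-1015. The groups overlapped, and the log2 difference of -0.31 (SE 0.10, adjusted p = 0.0308) was not called without any 1 of DMSO replicates 1 and 3 and FHT-1015 replicates 2 and 3 (highest adjusted p = 0.132) with an offset for GC content (-0.23, adjusted p = 0.0758), with only the 6 libraries compared (adjusted p = 0.0602) or in one fit of all 48 (adjusted p = 0.646). At 24 h in 92-1 TRIO was not called with FHT-1015, except with an offset for GC content (0.28, adjusted p = 0.0181). Under IDE196 at 24 h TRIO had 105, 95.1 and 118 CPM against 81.3, 84.0 and 92.5 CPM in DMSO, the only member called higher there (0.30, SE 0.12, 1.23-fold, adjusted p = 0.0393). That call was lost without any 1 of DMSO 24 h replicates 4 and 5, IDE196 4 h replicate 3 and IDE196 24 h replicates 1 and 3 (highest adjusted p = 0.177) and in one fit of all 48 libraries (adjusted p = 0.365). In MP41 at 24 h TRIO had 107, 119 and 88.7 CPM in DMSO and 90.4, 69.0 and 78.2 CPM with FHT-1015, which overlapped. The difference of -0.40 (SE 0.19, adjusted p = 0.114) was called by limma-voom (-0.48, adjusted p = 0.00194) and without DMSO 24 h replicate 3 or FHT-1015 4 h replicate 1 (lowest adjusted p = 0.0162), and was -0.18 (adjusted p = 0.586) without the libraries that stood apart. In MEL202 TRIO varied widely within groups, with 118, 115 and 36.4 CPM in DMSO and 95.3, 209 and 73.7 CPM with FHT-1015 at 4 h.

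ARF6 (chr14:49893092-49897054), the GTPase placed downstream of the alpha subunits in membrane traffic, fell most of the members under FHT-1015 in 92-1. In that line at 4 h it had 224, 251 and 243 CPM in DMSO and 160.3, 171 and 169 CPM with FHT-1015. At 24 h it had 224, 243 and 246 CPM in DMSO and 103, 99.3 and 89.7 CPM with FHT-1015. At both times every treated library lay well below every DMSO library, and the DMSO levels at the 2 times overlapped. The log2 difference was -0.52 (SE 0.08, 1.43-fold lower, adjusted p = 1.38e-04) at 4 h and -1.29 (SE 0.08, 2.44-fold lower, adjusted p = 2.44e-09) at 24 h. The fall deepened between the times by 0.77 on the log2 scale (24 h minus 4 h effect -0.77, SE 0.11, adjusted p = 5.32e-05), in a test that 45.5% of all genes passed.

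In MEL202, ARF6 started lower, at 128, 127 and 138 CPM in DMSO at 24 h, and had 99.0, 94.6 and 101 CPM with FHT-1015. The groups did not overlap, but the difference of -0.42 (SE 0.18) did not pass in the fit of all 12 libraries (adjusted p = 0.128). It passed without the libraries that stood apart (-0.43, adjusted p = 0.0202), in the 6 libraries compared alone (-0.43, adjusted p = 0.0110) and with an offset for GC content (-0.41, adjusted p = 0.0488). In MP41 ARF6 had 158, 204 and 215 CPM in DMSO at 24 h and 111, 139 and 142 CPM with FHT-1015, again without overlap. The log2 difference was -0.56 (SE 0.15, 1.47-fold lower, adjusted p = 0.00980), and -0.73 (adjusted p = 0.00154) against the 1 DMSO library that did not stand apart, with the spread of the other groups. With only the 6 libraries compared it was -0.62 (adjusted p = 0.0576). Under IDE196 ARF6 had 218, 201 and 205 CPM at 24 h against 313, 332 and 311 CPM in DMSO, well apart, a log2 difference of -0.62 (SE 0.08, 1.53-fold lower, adjusted p = 5.89e-06).

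**Figure D4:**
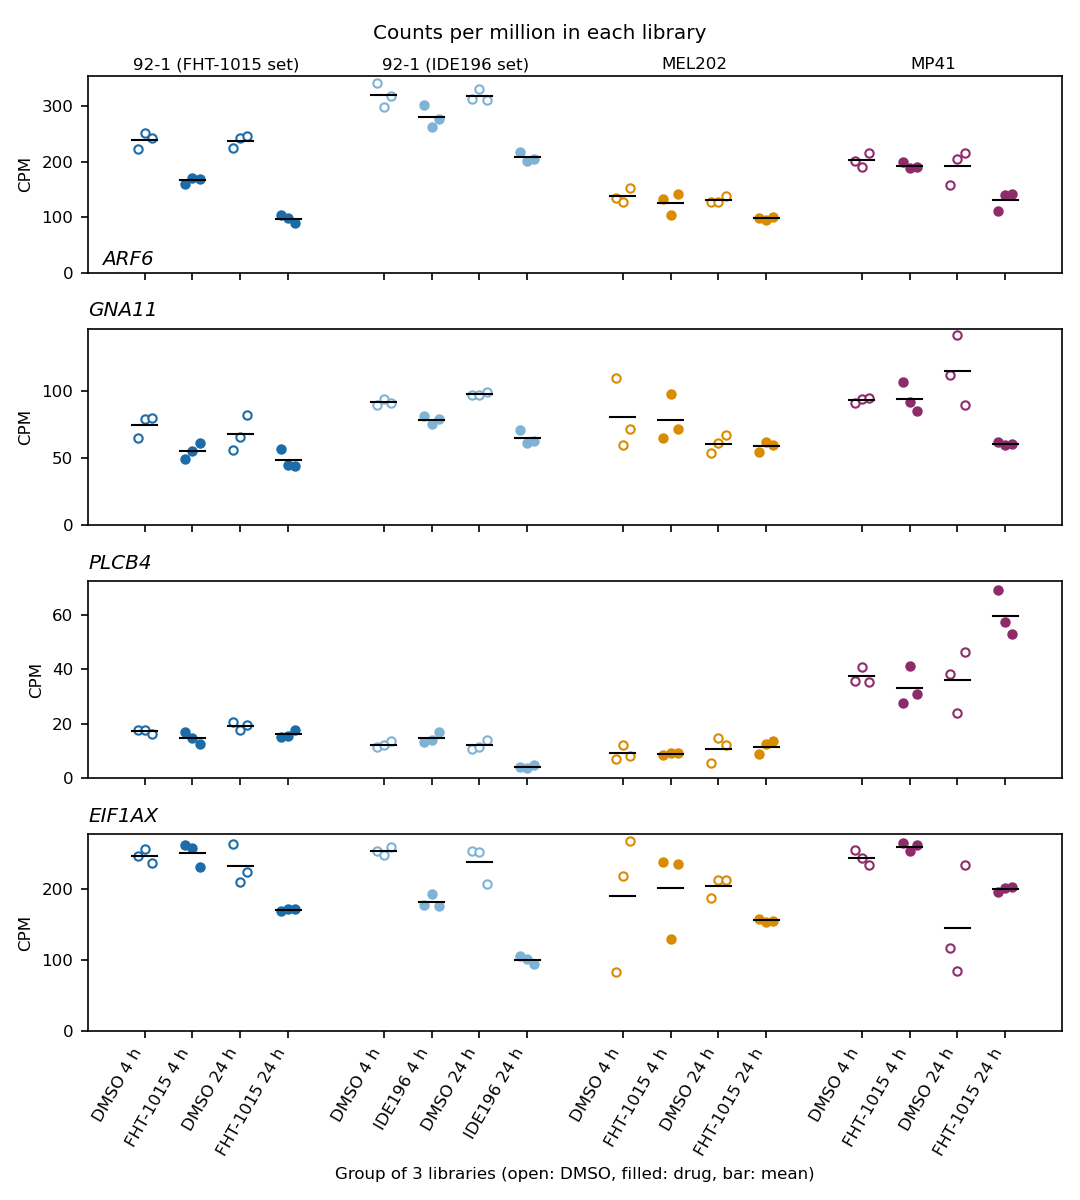
CPM of ARF6, GNA11, PLCB4 and EIF1AX in each of the 48 libraries, with open points for DMSO, filled points for drug and a bar at the mean of 3. In 92-1 under FHT-1015, ARF6 has 160.3 to 171 CPM at 4 h and 89.7 to 103 CPM at 24 h, below its DMSO libraries at 224 to 251 CPM.

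BAP1 (chr3:52401013-52410350), a nuclear deubiquitinase lost in many metastasising uveal melanomas, was expressed in every library at 95.0 CPM or more. By edgeR on all libraries it fell only under IDE196 at 24 h among the 8 comparisons of drug with DMSO, from 130.4, 143 and 135 CPM to 95.0, 96.8 and 98.7 CPM, with groups well apart (log2 difference -0.49, SE 0.07, 1.41-fold lower, adjusted p = 1.85e-05). In MEL202 at 24 h it had 148, 187 and 186 CPM in DMSO and 224, 230.1 and 227 CPM with FHT-1015. All treated libraries were higher, by 0.39 (SE 0.23), without passing in the fit of 12 libraries (adjusted p = 0.282), whereas without the libraries that stood apart the value was 0.38 (adjusted p = 0.0467). In 92-1 at 24 h BAP1 had 109, 98.9 and 105 CPM in DMSO and 118, 110.2 and 113 CPM with FHT-1015, also without overlap, and the difference of 0.13 did not pass (adjusted p = 0.139). With an offset for GC content it was 0.31 (adjusted p = 0.00848). In MP41 at 24 h the BAP1 difference of -0.20 did not pass (adjusted p = 0.290), but it was called without DMSO 24 h replicate 3 (-0.38, adjusted p = 0.0353), the DMSO library there that did not stand apart.

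SF3B1 (chr2:197389784-197435091), the core of the splicing factor complex that holds the branch point, passed by edgeR under IDE196 at 24 h alone among the 8 comparisons of drug with DMSO. It had 284, 269.6 and 266 CPM in DMSO and 183, 180.0 and 182 CPM with IDE196. The treated libraries were tightly grouped below all DMSO libraries (log2 difference -0.59, SE 0.09, adjusted p = 2.45e-05). In 92-1 at 24 h the FHT-1015 libraries had 348, 368 and 391 CPM and the DMSO libraries 373, 333 and 327 CPM, which overlapped. SF3B1 was called higher there with an offset for GC content (0.18, adjusted p = 0.0231) and by limma-voom (0.15, adjusted p = 0.0445). In MP41 DMSO at 24 h SF3B1 had 368, 179.7 and 443 CPM, and the low value was again the library with the strongest GC imbalance.

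EIF1AX (chrX:20124518-20141844), which helps the small ribosomal subunit find the start codon, fell with both drugs in 92-1. Under IDE196 it had 177, 193 and 177 CPM at 4 h against 254, 249 and 259 CPM in DMSO, and 105, 101 and 93.8 CPM at 24 h against 254, 253 and 207 CPM. No treated library reached the DMSO range at either time. The log2 difference was -0.48 (SE 0.09, 1.39-fold lower, adjusted p = 0.00101) at 4 h and -1.25 (SE 0.09, 2.38-fold lower, adjusted p = 3.44e-09) at 24 h, and the effect grew between the times (-0.77, SE 0.13, adjusted p = 1.66e-04). It was the only member called by edgeR at 4 h with IDE196. In one fit of all 48 libraries the 4 h call (adjusted p = 0.395) and the call between times (adjusted p = 0.193) were lost.

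With FHT-1015 in 92-1, EIF1AX had 262, 258 and 231 CPM at 4 h against 246, 256 and 237 CPM in DMSO, which overlapped. At 24 h it had 169, 172 and 172 CPM against 264, 209.9 and 224 CPM, without overlap (-0.44, SE 0.09, 1.36-fold lower, adjusted p = 4.35e-04, and 0.182 in one fit of all 48 libraries). In MEL202 at 24 h EIF1AX had 158, 154 and 156 CPM with FHT-1015 and 188, 213 and 213 CPM in DMSO. The groups did not overlap, and the difference of -0.39 (SE 0.34, adjusted p = 0.487) passed without the libraries that stood apart (-0.40, adjusted p = 0.0313). In MP41 at 24 h the DMSO libraries had 116, 83.8 and 234 CPM and the treated ones 195, 202 and 203 CPM. The difference of 0.47, not called by edgeR (adjusted p = 0.186) but called by limma-voom (0.77, adjusted p = 7.47e-06), became -0.24 (adjusted p = 0.163) without the libraries that stood apart. Single omissions moved it from 0.19 to 0.94, and edgeR called it without DMSO 24 h replicate 3 (adjusted p = 6.35e-05). EIF1AX also overlaps an antisense gene, and its strand-specific counts summed to the unstranded count.

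Whether the response to FHT-1015 differed among the 3 lines was tested in a joint fit of their 36 libraries. At 24 h 2 of 8 members passed, against 12% of all tested genes, and at 4 h 0 of 8, against 1.38% (0 at an unadjusted p under 0.05). ARF6 fell further in 92-1 at 24 h, its effect being 0.83 higher on the log2 scale in MEL202 and 0.63 higher in MP41 (adjusted p = 0.00622 for any difference). That call held in 18 of 18 omissions of 1 library and was lost with no filter on low counts (adjusted p = 0.0542). For GNA11 the effect was 0.38 higher in MEL202 and 0.54 lower in MP41 than in 92-1 (second value -0.54, adjusted p = 0.0456). This call was lost in 15 of 18 omissions of 1 library, all but those of MEL202 DMSO 24 h replicate 3, MP41 DMSO 24 h replicate 3 and 92-1 DMSO 24 h replicate 3 (highest adjusted p = 0.164), without the libraries that stood apart (adjusted p = 0.137), with relative log expression normalization (adjusted p = 0.0577) and with no filter on low counts (adjusted p = 0.128). For PLCB4, called in MP41 alone, the difference among lines did not pass (adjusted p = 0.197). With no filter on low counts EIF1AX was the 1 member called among lines (adjusted p = 0.0248), GNAQ was called with an offset for GC content (adjusted p = 0.0405), and GNAQ, BAP1 and EIF1AX were called without MP41 DMSO 24 h replicate 3 (adjusted p = 0.0346, 0.0367 and 0.0101).

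FHT-1015 and IDE196 were compared in 92-1 at matched times by the difference of their effects, each against its own DMSO. Doses were not given in the labels, and the 2 sets of DMSO libraries differed for 7 of 8 members (60.4% of all genes), TRIO being the exception (the EIF1AX call was lost in 8 of 12 omissions of 1 library, with a highest adjusted p = 0.179, and with summed strand-specific counts, and both the SF3B1 and EIF1AX calls with no filter on low counts, adjusted p = 0.0761 and 0.0620, and in one fit of all 48 libraries), so the set and the drug cannot be told apart. At 24 h 5 of 8 members differed, against 33% of all genes. ARF6 fell further with FHT-1015 (FHT-1015 minus IDE196 effect -0.67, SE 0.11, adjusted p = 2.78e-05). PLCB4 (1.27, SE 0.20, adjusted p = 1.52e-05), EIF1AX (0.80, SE 0.12, adjusted p = 1.07e-05), SF3B1 (0.69, SE 0.12, adjusted p = 7.81e-05) and BAP1 (0.62, SE 0.10, adjusted p = 8.98e-06) had the lower effect with IDE196. In one fit of all 48 libraries the EIF1AX and SF3B1 differences did not pass (adjusted p = 0.138 and 0.0856). The GNA11 effects did not pass as different (0.11, SE 0.16, adjusted p = 0.667). At 4 h 2 of 8 differed, against 24.6%, namely EIF1AX (0.50, adjusted p = 0.00360) and ARF6 (-0.34, adjusted p = 0.0271). The ARF6 call at 4 h was lost in 6 of 12 omissions, of DMSO replicates 2 and 3, FHT-1015 replicate 1, IDE196-set DMSO replicates 5 and 6 and IDE196 replicate 1 (highest adjusted p = 0.0933). It was also lost with no filter on low counts (adjusted p = 0.203), with an offset for GC content (adjusted p = 0.0516) and in one fit of all 48 libraries (adjusted p = 0.313), where the EIF1AX call at 4 h was lost too (adjusted p = 0.456). With an offset for GC content PLCB4 was called at 4 h (-0.50, adjusted p = 0.0412) and GNAQ at 24 h (-0.38, adjusted p = 0.00880). Single omissions also gave calls of PLCB4 and TRIO at 4 h (lowest adjusted p = 0.0346 and 0.0238) and of GNAQ at 24 h (lowest adjusted p = 0.0460).

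The wider pathway was read from 8 lists of 109 other genes, grouped by the member they act with. At 24 h the background for these counts, the share of all tested genes called, was 29.2% higher and 31.4% lower in 92-1 with FHT-1015, 8.69% and 10.1% in MEL202, 17.4% and 18.7% in MP41, and 28.7% and 29.4% in 92-1 with IDE196. Of 13 tested genes of the Gq family, the beta and gamma subunits and the kinases and arrestins that switch receptors off, 1 rose and 7 fell under FHT-1015 in 92-1 at 24 h and 0 rose (0 at an unadjusted p under 0.05) and 8 fell under IDE196, with list medians of -0.27 and -0.52 on the log2 scale. GNG12, a gamma subunit, fell under IDE196 from 197 ± 23.2 to 43.7 ± 4.01 CPM (SD, n = 3, log2 difference -2.17, adjusted p = 5.83e-11). In MEL202 0 of 13 passed (2 higher and 1 lower at an unadjusted p under 0.05, and 2 higher and 1 lower called without the libraries that stood apart), and in MP41 3 of 12 rose and 3 fell (2 and 2 without the libraries that stood apart).

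Of 17 listed Gq-coupled receptors, 7 or 8 were expressed enough to be tested in a set. With FHT-1015 at 24 h 3 rose and 3 fell of 7 in 92-1, 1 rose and 2 fell of 7 in MEL202 and 1 rose and 2 fell of 8 in MP41 (0 rose and 3 fell without the libraries that stood apart), and with IDE196 2 rose and 3 fell of 8. The endothelin receptor gene EDNRA rose under FHT-1015 at 24 h in the 3 lines, from 2.43 ± 0.223 to 4.14 ± 0.498 CPM in 92-1 and from 2.63 ± 0.410 to 8.28 ± 0.727 CPM in MEL202. In MP41 its rise of 1.81 on the log2 scale (adjusted p = 0.0161) was not called without the libraries that stood apart (1.18, adjusted p = 0.186) or without FHT-1015 24 h replicate 3 (adjusted p = 0.0549). Under IDE196 EDNRA fell, from 3.10 ± 0.290 to 1.02 ± 0.597 CPM (adjusted p = 6.21e-04), while the related EDNRB rose from 258 ± 66.6 to 1063 ± 114 CPM (log2 difference 2.04, adjusted p = 2.44e-09). The purine receptor gene P2RY1 fell under FHT-1015 in the 3 lines, by 0.68, 1.61 and 1.49 on the log2 scale in 92-1, MEL202 and MP41. In one fit of all 48 libraries the 92-1 calls of P2RY1 and EDNRA under FHT-1015 were lost (adjusted p = 0.0556 and 0.0839).

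Of 15 genes of phospholipase C and second messenger handling, 6 rose and 8 fell under FHT-1015 in 92-1 at 24 h, 3 rose and 1 fell in MEL202, and 2 of 14 rose and 6 fell in MP41, where 5 rose without the libraries that stood apart. In MEL202 2 fell without them. All genes stood at 29.2% higher and 31.4% lower in 92-1, 8.69% and 10.1% in MEL202 and 17.4% and 18.7% in MP41. DGKA, a kinase that removes diacylglycerol, rose in the 3 lines, from 2.29 ± 0.323 to 10.2 ± 1.11 CPM in 92-1, from 1.37 ± 0.132 to 4.73 ± 0.263 CPM in MEL202 and from 0.929 ± 0.289 to 3.57 ± 0.607 CPM in MP41. PLCB2, a further beta-type phospholipase, fell in the 3 lines, by 1.34, 2.01 and 1.34 on the log2 scale. Under IDE196 3 rose and 7 fell, among them PLCB1, another beta-type phospholipase, from 19.4 ± 0.879 to 2.25 ± 0.181 CPM (log2 difference -3.10, adjusted p = 1.83e-11). PLCD1, a delta-type phospholipase, rose by 2.44 on the log2 scale (adjusted p = 3.82e-10).

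In the TRIO branch, 3 of 10 genes rose and 6 fell under FHT-1015 in 92-1 at 24 h, beside 29.2% higher and 31.4% lower of all genes, and 1 rose and 0 fell in each of the other lines (0 lower at an unadjusted p under 0.05). That gene was ROCK1, a kinase that acts on the actin cytoskeleton, with log2 differences of 0.50 (adjusted p = 6.86e-04), 1.42 (adjusted p = 0.0108) and 1.03 (adjusted p = 0.0330) in 92-1, MEL202 and MP41. In MP41 ROCK1 was not called without the libraries that stood apart (0.25, adjusted p = 0.344), or without DMSO 24 h replicate 1 or FHT-1015 24 h replicate 1 or 3 (highest adjusted p = 0.104). In MEL202 it was not called without DMSO 24 h replicate 1 (1.20, adjusted p = 0.0576). The 92-1 call of ROCK1 was lost in one fit of all 48 libraries (adjusted p = 0.151). Its MP41 call was also lost with only the 6 libraries compared (adjusted p = 0.120). Under IDE196 2 rose, led by the TRIO paralogue KALRN (6.53 ± 0.454 to 20.5 ± 6.33 CPM), and 1 fell, PAK2 (121 ± 13.6 to 92.5 ± 2.49 CPM). The PAK2 call was lost in one fit of all 48 libraries (adjusted p = 0.153).

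Of 14 exchange factors, GTPase activators and relatives of ARF6, 4 rose and 7 fell under FHT-1015 in 92-1 at 24 h (29.2% and 31.4% of all genes), 2 rose and 0 fell in MEL202 (0 lower at an unadjusted p under 0.05, beside 8.69% higher and 10.1% lower of all genes), and 2 rose and 5 fell in MP41, where 2 fell without the libraries that stood apart. CYTH1, an exchange factor for ARF proteins, rose in the 3 lines, from 60.1 ± 3.01 to 88.1 ± 4.09 CPM in 92-1, from 117 ± 8.68 to 194 ± 7.11 CPM in MEL202 and from 45.0 ± 4.03 to 111 ± 18.6 CPM in MP41. The MEL202 call of CYTH1 was lost without DMSO 24 h replicate 1 or FHT-1015 24 h replicate 1 or 2 (highest adjusted p = 0.0589). It was also lost with no filter on low counts (adjusted p = 0.0599). Under IDE196 4 rose and 3 fell, with CYTH3 rising from 36.4 ± 0.624 to 70.6 ± 1.55 CPM and the ARF6 exchange factor PSD3 falling from 199.6 ± 6.97 to 117 ± 15.4 CPM.

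The partners of the 3 other drivers were read the same way. Of 11 tested BAP1 partners, 5 rose and 4 fell under FHT-1015 in 92-1 at 24 h, beside 29.2% and 31.4% of all genes. In MEL202 1 rose and 0 fell (0 lower at an unadjusted p under 0.05), beside 8.69% and 10.1%. In MP41 2 rose and 2 fell, beside 17.4% and 18.7%. MBD5, a component of BAP1 complexes, rose by 1.39, 1.29 and 0.99 on the log2 scale in 92-1, MEL202 and MP41. Under IDE196 2 rose and 3 fell, led by the demethylase gene KDM1B (73.6 ± 0.786 to 123 ± 4.37 CPM) and by HCFC1, which binds BAP1 (342 ± 11.8 to 177 ± 22.0 CPM). Of 14 partners of SF3B1 in the U2 particle, 0 rose under either drug at 24 h (0 higher at an unadjusted p under 0.05 in each of the 4 sets), and 8, 2 and 3 fell under FHT-1015 in 92-1, MEL202 and MP41 and 10 under IDE196. Of all genes 31.4%, 10.1%, 18.7% and 29.4% fell, so the counts in MEL202 and MP41 were near the background. Without the libraries that stood apart 4 fell in MEL202, and with relative log expression normalization 0. With an offset for GC content 2 of them rose in 92-1 with each drug and 2 in MP41. The helicase gene DHX15 fell under IDE196 from 193 ± 6.06 to 64.9 ± 1.72 CPM (log2 difference -1.57, adjusted p = 4.63e-11).

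Of 12 partners of EIF1AX in translation start, 8, 2 and 4 fell under FHT-1015 at 24 h in 92-1, MEL202 and MP41 and 0 rose (0 at an unadjusted p under 0.05 in each line, and 1 in 92-1 with an offset for GC content), with list medians of -0.64, -0.55 and -0.22 on the log2 scale. Of all genes 31.4%, 10.1% and 18.7% fell. Without the libraries that stood apart 7 fell in MEL202. The related gene EIF1AD fell in the 3 lines, by 0.88, 0.61 and 0.85 on the log2 scale in 92-1, MEL202 and MP41, where it went from 62.7 ± 3.16 to 34.9 ± 2.92 CPM. Its call in MEL202 (adjusted p = 0.0479) was lost with 8 single omissions, of each DMSO 24 h and FHT-1015 24 h replicate and of FHT-1015 4 h replicates 1 and 3 (highest adjusted p = 0.154), and with the replicate number as a block (adjusted p = 0.0648). The same call was lost with relative log expression normalization (adjusted p = 0.0525) and with no filter on low counts (adjusted p = 0.149). Under IDE196 1 rose, EIF2S3 (545 ± 56.2 to 702 ± 50.7 CPM), and 7 fell. EIF4A1 fell most, from 3.34 ± 0.858 to 1.01 ± 0.268 CPM, but it overlaps a read-through gene on the same strand and its counts are uncertain.

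The genes whose level followed each member most closely were sought by the correlation of log2(CPM + 1), centred on the mean of each set, over 48 libraries and 10500 protein-coding genes. The values are descriptions across libraries that share lines, drugs and GC balance. ARF6 was followed most closely by JPT2 (r = 0.923) and IER5 (0.912), GNAQ by ZNF148 (0.954) and OSBPL8 (0.951), and GNA11 by RAB35 (0.875) and CENPB (0.874). PLCB4 was followed by NRCAM (0.819) and GNG12 (0.789), and TRIO by PRRC2B (0.944) and TRRAP (0.917). SF3B1 was followed by OPA1 (0.945) and BCLAF1 (0.931), and EIF1AX by SRSF1 (0.944) and UBE2K (0.941). The genes nearest to GNAQ had 35.6% and 35.5% GC in their longest transcript, and those nearest to GNA11 had 57.6% and 66.2%, beside the members' own 38.6% and 62.8%.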

How the data were processed

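Poly(A) RNA of 48 samples was sequenced with an unstranded library kit, per the labels' protocols. The authors deposited 1 table of whole-number read counts per gene and sample, and the unstranded count column was used as deposited (1 alternative sums the 2 strand-specific columns, which hold 49.73 to 50.11% of stranded reads on the first strand). Per the submitters' processing notes the build was hg38 and limma was among the tools; the aligner, its version and the annotation are not given in the sources used here. Of 58870 gene identifiers, 58597 matched GENCODE release 29, which gave symbols, lengths and positions. Rows that name no gene were left out of library sizes. Ambiguous reads, 1 such row, amounted to 11.5 to 14.8% of the number of reads assigned to genes.

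Counts of each set of 12 libraries were tested with edgeR 4.0.16 (R 4.3.3) by TMM normalization, filterByExpr and the quasi-likelihood test, adjusted by the Benjamini-Hochberg method over all tested genes, with calls at 0.05. Differences among lines or drugs used joint fits. Standard errors were taken as the log2 difference over the square root of F. CPM are TMM-scaled within a set. The tests were checked on simulated data. Alternatives were DESeq2 1.42.0, limma-voom (limma 3.58.1), relative log expression normalization, no low-count filter, other sample sets, single omissions and a replicate block. The GC offsets and the omission of 4 libraries were chosen after seeing the data. Replicate numbers were not taken as pairs: over 18 same-numbered pairs the correlation of deviations ran from -0.63 to 0.81. Depth of 11394088 to 32317711 reads limits CYSLTR2, whose floor was set at 3 reads. Named list genes were, for each list, the gene called the same way in the 3 lines with the largest smallest change under FHT-1015, and the largest riser and faller under IDE196, at 24 h. Genes most alike a member were the 2 of at least 5 CPM with the highest correlation, and those of BAP1 are not reported here. The members and lists were chosen with earlier results of these data known.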

Additional observations from a re-analysis of the deposited data

Results flagged for a closer look

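Several effects on the members differed between times, lines or drugs by a test of the difference itself (edgeR, log2 scale, adjusted p under 0.05). In 92-1 under FHT-1015 the 24 h effect minus the 4 h effect was -0.77 for ARF6, -0.47 for EIF1AX and 0.39 for TRIO, the last lost in 7 of 12 omissions of 1 library (highest adjusted p = 0.110) and with no filter on low counts (adjusted p = 0.0758). In one fit of all 48 libraries the EIF1AX (adjusted p = 0.383) and TRIO (adjusted p = 0.561) calls were lost. In MP41 it was -0.93 for GNA11. Under IDE196 in 92-1 it was -1.79 for PLCB4, -0.77 for EIF1AX, -0.56 for SF3B1, -0.47 for BAP1, -0.43 for ARF6 and -0.36 for GNA11. The GNA11 value was lost without DMSO 4 h replicate 6 or IDE196 24 h replicate 2 (highest adjusted p = 0.0598) with no filter on low counts (adjusted p = 0.113) and with an offset for GC content (-0.25, adjusted p = 0.0800). In one fit of all 48 libraries the calls of EIF1AX, SF3B1, BAP1, ARF6 and GNA11 under IDE196 were lost (adjusted p = 0.193, 0.235, 0.190, 0.154 and 0.457), and that of PLCB4 was not.

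Among the 3 lines at 24 h, the effect of FHT-1015 differed for ARF6 (adjusted p = 0.00622) and GNA11 (adjusted p = 0.0456). With no filter on low counts both were lost (adjusted p = 0.0542 and 0.128), and GNA11 was also lost in 15 of 18 omissions of 1 library, with relative log expression normalization (adjusted p = 0.0577) and without the libraries that stood apart by GC balance (adjusted p = 0.137). Between FHT-1015 and IDE196 in 92-1, the difference of effects at 4 h was -0.34 for ARF6 and 0.50 for EIF1AX, both lost in one fit of all 48 libraries (adjusted p = 0.313 and 0.456). At 24 h it was -0.67 for ARF6, 0.62 for BAP1, 0.69 for SF3B1, 0.80 for EIF1AX and 1.27 for PLCB4, with SF3B1 and EIF1AX lost in that fit (adjusted p = 0.0856 and 0.138).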

How the results depend on the processing

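Counts of members called moved by more than 1.5 times as follows. With one fit of all 48 libraries they were 1 for FHT-1015 in 92-1 at 4 h and 1 for its 24 h against 4 h effect, 2 in MEL202 at 24 h, 2 for the 24 h against 4 h effect in MP41 and 2 for MP41 DMSO over time, 0 for IDE196 at 4 h and 1 for its 24 h against 4 h effect, and 0 at 4 h and 3 at 24 h for FHT-1015 against IDE196. With GC offsets they were 6 in 92-1 at 24 h, 3 in MEL202 at 24 h, 2 in MP41 at 24 h, 2 for its effect over time and 1 for its DMSO over time. Without the 4 libraries that stood apart they were 3 in MEL202 and 2 in MP41 at 24 h, 2 for the MP41 effect over time and 1 among lines at 24 h. With limma-voom they were 5 in 92-1 and 4 in MEL202 at 24 h, 5 for the MP41 effect over time, 6 for MP41 DMSO over time and 2 for IDE196 at 4 h. DESeq2 gave 2 for the MP41 effect over time and 2 for IDE196 at 4 h. Fits of only the 6 samples compared gave 4 in MEL202 and 1 in MP41 at 24 h. Without a low-count filter they were 2 for the MP41 effect over time, 2 for MP41 DMSO over time, 1 among lines at 24 h and 1 for FHT-1015 against IDE196 at 4 h, and relative log expression normalization gave 1 among lines. Omitting 1 library in turn gave 1 to 3 in 92-1 at 4 h, 2 to 7 in MP41 at 24 h, 1 to 4 for its effect over time, 0 to 5 for its DMSO over time, 1 to 5 among lines at 24 h and 1 to 3 for FHT-1015 against IDE196 at 4 h. The 7, the 0 to 5 and the 1 to 5 had their highest value without MP41 DMSO 24 h replicate 3. With GC offsets 3 values that were called in the main fit or with the offsets changed sign: PLCB4 in MP41 DMSO over time (0.61, adjusted p = 0.0473), and EIF1AX in 92-1 minus MP41 (-0.0084) and in MEL202 minus MP41 (-0.18, adjusted p = 0.0462). Changes of sign in values called in neither fit are not listed. Of 192 values of single members, 191 kept their side of the threshold with relative log expression normalization, 181 without the filter and 169 with GC offsets. The causes were not tested. With summed strand-specific counts the GNAQ to GNA11 ratio moved to 0.833 and 0.793 in the FHT-1015 and IDE196 sets of 92-1. It moved to 0.817 in MEL202 and 0.316 in MP41. In order by CPM without length 4 of 9 members kept their place in 92-1 (FHT-1015 set) and 4 in MP41. With the replicate number as a block, 96 of 96 member values kept their side of the threshold. Every same-numbered pair correlated above 0.1 only in 92-1 and MP41 at 4 h, 13 of 18 samples correlated best with their own number, and the IDE196 arms share no numbers, so no paired analysis was possible there. The low-count filter left CYSLTR2 and some list genes untested.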
